A study of Mus musculus with 33 samples.

Results

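Cystatin F, encoded by Cst7, is an inhibitor of lysosomal cysteine proteases that is made by immune cells and counts among the marker genes of reactive microglia. Its transcript was followed here in sorted mouse microglia together with those of 9 further genes: the inhibitors Cst3 (cystatin C) and Cstb (cystatin B, also called stefin B), the cysteine cathepsins Ctsb, Ctsc, Ctsl, Ctss and Ctsz, the asparaginyl endopeptidase legumain (Lgmn) and the aspartic protease cathepsin D (Ctsd). The 10 genes were chosen by name from the 54146 genes listed in the files, with earlier results of these data known. All 10 passed the filter on low counts in each of the 12 comparisons made. The questions asked were whether the inhibitor and the proteases move together in 5xFAD mice, which model amyloid deposition, and in mice without Irf8, the gene of a transcription factor that microglia and other myeloid cells need.

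Lysosomal proteases break down engulfed proteins, and several of them also trim antigens or activate other enzymes. Cystatins close the active site of papain-like cysteine cathepsins. Cystatin F is unusual in being carried to the lysosome, where its trimmed form inhibits cathepsin C among other targets, while cystatin C is secreted in quantity and cystatin B stays in the cytosol. Cystatin C and cystatin F also bind legumain through a separate surface, and none of the cystatins inhibits cathepsin D, whose active site is of another kind.

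RNA was measured in 33 libraries of microglia, the resident macrophages of the brain, from C57BL/6 mice labelled female. Microglia from single brains, isolated with no enzyme and sorted by FACS, formed 10 groups. The first experiment compared 4 WT with 4 IRF8KO libraries (Irf8 removed in the germline) at 3 months. At 9 months, 3 WT, 3 IRF8KO, 3 5xFAD (labelled 5xFAD/WT) and 3 5xFAD/IRF8KO libraries were compared. 5xFAD mice carry transgenes driven by a neuronal promoter, so microglia meet amyloid made by other cells. A separate experiment compared 3 WT with 3 Batf3KO libraries (Batf3-/-) at 3 months, Batf3 being the gene of a leucine zipper factor that works with IRF8 in a subset of dendritic cells. The conditional experiment at 3 months used mice with a floxed Irf8 allele (IRF8flox, 3 libraries, called flox) and mice that also carried Cx3cr1CreERT2, a tamoxifen-inducible recombinase expressed in microglia and other macrophages (4 libraries, called Cre). Both of these groups received tamoxifen on 5 days from postnatal day 12, so they share that treatment, and cells positive for the EYFP reporter were sorted. How the flox cells were gated is not given in the sources used here.

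Counts in genes ranged from 605376 to 18357762 per library, with the lowest in the WT group at 9 months. Levels are given as CPM, the share of a library's counts scaled to a common size with TMM factors, and differences as log2 fold changes with their standard error (SE) from edgeR. A gene was called changed at an adjusted p under 0.05 over all genes tested. Irf8 transcript stood at 95.4 to 172 CPM in the IRF8KO libraries at 3 months against 241 to 313 CPM in their WT group, and at 14.9 to 126 CPM against 543 to 650 CPM at 9 months. In 5xFAD/IRF8KO it stood at 73.1 to 94.1 CPM against 510 to 704 CPM in 5xFAD. The Batf3KO libraries held 1019 to 1178 CPM and their WT group 1080 to 1359 CPM, far above the WT group of the first experiment. By Irf8 transcript, the library labelled Cre replicate 1 went against its label. It held 1050 CPM of Irf8, within the 905 to 1145 CPM of the flox libraries, where the other Cre libraries held 337 to 485 CPM. The comparisons of Cre with flox and of conditional with germline loss are therefore given with and without it, while the other means over Cre include it. Batf3, named here after its values were seen, stood at 0.834 ± 0.835 CPM in IRF8KO and 34 ± 21.7 CPM in WT at 3 months (SD). In the conditional experiment it stood at 3.34 ± 1.34 CPM in flox and at 34.9 ± 25.6 CPM in Cre. Whether the flox and Cre labels were exchanged was not tested. Y-linked transcripts were present in 13 libraries without Xist and in 3 libraries with it, although all labels read female. All 3 WT libraries at 9 months were among the 13, against 1 of 3 5xFAD libraries. The 15 homeostatic microglial markers summed to 7.31% to 8.85% of gene counts in the WT and 5xFAD libraries at 9 months and in the Batf3 experiment, to 1.66% to 3.41% in the WT group of the first experiment, and to 0.463% to 1.45% in the 10 germline libraries without Irf8. The 15 neutrophil markers summed to a mean of 3.88% in that WT group, to 8.24% to 12% in the 3 groups without Irf8 in the germline, and to at most 0.108% in the means of the other 6 groups. Fewer microglia in a sample and less of a transcript per microglial cell cannot be told apart in these sorted bulk samples.

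Promoters were read for the genes on which the comparisons turn, because IRF8 binds DNA through GAAA-type half-sites, often beside the Ets factor PU.1, and because lysosomal genes are known for the E-box of the CLEAR element. RefSeq promoters on GRCm38.p6 were found for 8 of the 10 genes, 9 promoters in all with 2 for Lgmn. The letters GGAANNGAA (an Ets-IRF pair), GAAANNGAA (a pair of IRF half-sites), GAGGAAG (a PU.1 core) and TCACGTG (the CLEAR E-box) were searched on both strands in windows from 250 bases before the start site to 50 after it. They occurred in 8.24%, 8.56%, 13.6% and 3.77% of all 32851 promoters. The 4 sequences below run 5′ to 3′ on the gene's strand, from 250 bases before the start site to 30 after it, and capitals mark the matches. Cst7 lies at chr2:150570165-150570444 (plus strand), Ctss at chr3:95526536-95526815 (plus), Ctsc at chr7:88277835-88278114 (plus) and Ctsd at chr7:142387798-142388077 (minus).
Cst7: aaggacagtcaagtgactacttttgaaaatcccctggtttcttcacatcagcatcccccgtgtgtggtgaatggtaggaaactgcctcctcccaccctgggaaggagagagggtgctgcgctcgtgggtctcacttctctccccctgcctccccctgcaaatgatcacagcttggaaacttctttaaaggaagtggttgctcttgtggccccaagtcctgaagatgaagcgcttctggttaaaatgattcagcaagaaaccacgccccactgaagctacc
Ctss: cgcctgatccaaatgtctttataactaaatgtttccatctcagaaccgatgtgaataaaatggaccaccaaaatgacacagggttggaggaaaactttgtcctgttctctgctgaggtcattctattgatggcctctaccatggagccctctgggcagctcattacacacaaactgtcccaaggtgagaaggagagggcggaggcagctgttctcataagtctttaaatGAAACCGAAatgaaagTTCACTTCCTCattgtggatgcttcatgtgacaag
Ctsc: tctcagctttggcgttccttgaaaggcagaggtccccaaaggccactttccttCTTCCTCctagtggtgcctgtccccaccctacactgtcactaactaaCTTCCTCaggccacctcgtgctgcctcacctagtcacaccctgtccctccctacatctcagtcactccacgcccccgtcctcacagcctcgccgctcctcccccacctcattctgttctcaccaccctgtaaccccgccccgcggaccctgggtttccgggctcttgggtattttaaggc
Ctsd: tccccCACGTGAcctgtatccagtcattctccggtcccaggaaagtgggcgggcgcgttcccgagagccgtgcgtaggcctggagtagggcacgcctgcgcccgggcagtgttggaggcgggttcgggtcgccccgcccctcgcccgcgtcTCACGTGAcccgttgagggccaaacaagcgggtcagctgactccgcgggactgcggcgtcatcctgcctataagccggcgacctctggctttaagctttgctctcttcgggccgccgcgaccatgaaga
The Cst7 window held no match to any of the 4 motifs. The Ctss window held the Ets-IRF pair TTCACTTCC with its first base 5 bases before the start site, the half-site pair GAAACCGAA 21 bases before it, and a PU.1 core that overlaps the first of these and is drawn in the same capitals. Ctss was the only gene of the 8 with either IRF motif. The Ctsc window held the PU.1 core at 197 and 150 bases before the start site. The Ctsd window held the E-box at 245, 99 and 98 bases before it, where the last 2 are the same palindrome read on both strands. The second Lgmn promoter also held an E-box, 50 bases before its start. A match describes letters and was not tested as a binding site.

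Cst7 (chr2:150570415-150578944 on GRCm38, plus strand, a protein-coding gene) varied more between groups than any other of the 10 genes, with a highest mean 50 times the lowest (27.4 times for Cst3, 16.6 times for Ctsl and 14 times or less for the rest). It held 8.65, 8.57 and 13.5 CPM in the WT libraries at 9 months, from only 59, 19 and 12 counts. The 3 5xFAD libraries held 235, 519 and 782 CPM, and every one of them stood far above WT. The IRF8KO libraries of the same age held 118, 131 and 132 CPM and the 5xFAD/IRF8KO libraries 215, 168 and 130 CPM, between those of WT and 5xFAD. At 3 months the WT libraries of the first experiment held 14.6, 24.8, 10.1 and 14.4 CPM and the IRF8KO libraries 63, 145, 56.8 and 64.5 CPM, with no overlap. In the Batf3 experiment the WT libraries held 12.2, 15.5 and 11.7 CPM and the Batf3KO libraries 22.4, 14 and 26.9 CPM, and here the groups overlapped. The flox libraries held 133, 129 and 135 CPM, far above both WT groups of the same age, while their Irf8 stood at 905 to 1145 CPM. The Cre libraries held 111, 30.8, 23.6 and 31.6 CPM, and the highest of these is the library labelled Cre replicate 1.

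In order of group means, Cst7 was highest in 5xFAD (512 CPM), followed by 5xFAD/IRF8KO (171), flox (132), IRF8KO at 9 months (127), IRF8KO at 3 months (82.2), Cre (49.2), Batf3KO (21.1), WT of the first experiment (16), WT of the Batf3 experiment (13.1) and WT at 9 months (10.2). The libraries of 5xFAD stood apart from those of the next group. From there down, each group overlapped with the next.

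**Figure D1:**
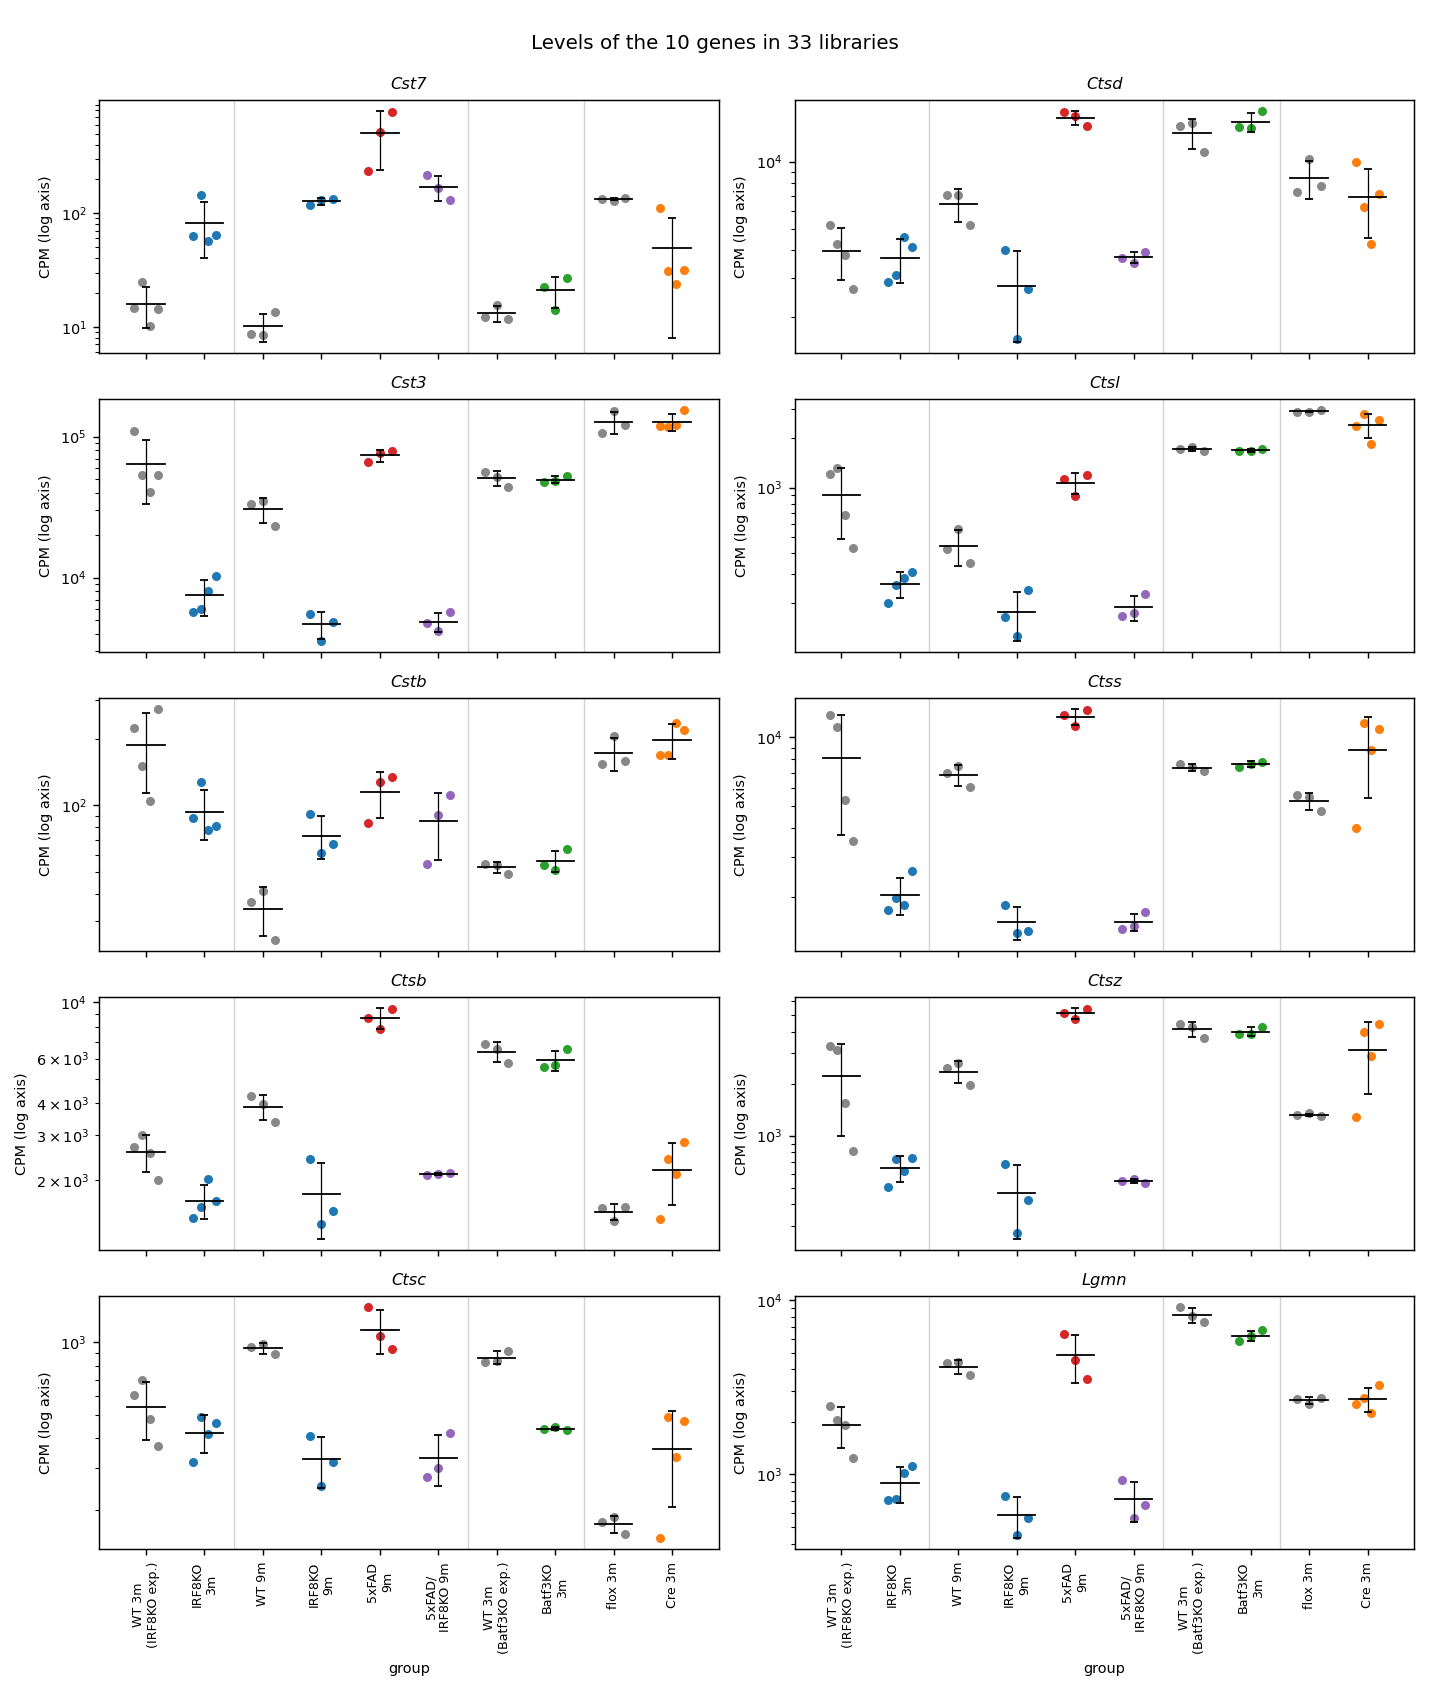
Level of each of the 10 genes in every library (points, CPM on a log axis) in the 10 groups, with the group mean (line) and SD (bars). Cst7 is highest in the 5xFAD libraries (235 to 782 CPM), while Cst3, Ctss and Ctsz are low in all germline libraries without Irf8.

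In 5xFAD microglia at 9 months, Cst7 rose by 5.73 ± 0.475 (SE) on the log2 scale against WT (53.2-fold, adjusted p = 0.000532). The other inhibitors rose less: Cst3 by 1.30 ± 0.278 (adjusted p = 0.038) and Cstb by 1.76 ± 0.364 (adjusted p = 0.0338). Among the proteases, Ctsb (a broad endopeptidase that also clips dipeptides from the C-terminus) rose by 1.18 ± 0.25 (adjusted p = 0.0357) and Ctsl (a potent endopeptidase) by 1.29 ± 0.283 (adjusted p = 0.0412). Ctsd missed the threshold narrowly at 1.31 ± 0.304 (adjusted p = 0.0501), as did Ctss at 0.87 ± 0.217 (adjusted p = 0.0646) and Ctsz at 1.14 ± 0.292 (adjusted p = 0.0739). Ctsc, whose product removes dipeptides from N-termini and is the best-known target of cystatin F, stood at 0.28 ± 0.25 (adjusted p = 0.887), and Lgmn at 0.23 ± 0.28 (adjusted p = 0.957).

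Thus 5 of the 10 genes were called higher and none lower, where 1.81% of the 14604 genes tested were called higher and 0.178% lower. All 10 fold changes lay above 0, with a median of 1.23 against 0.00 over all genes, although those of Ctsc and Lgmn were -0.02 and -0.19 with a term for Y-linked transcripts. The libraries of WT and 5xFAD did not overlap for 8 of the 10 genes, the exceptions being Ctsc and Lgmn. The Cst7 call held when any of the 6 libraries was left out (5.22 to 6.09). Those of Cst3, Cstb, Ctsb and Ctsl were lost whichever of the 6 libraries was left out, and also with a term for Y-linked transcripts, which all WT but not all 5xFAD libraries held. These fits share their estimate of the spread with IRF8KO and 5xFAD/IRF8KO. With only the 2 groups compared, 8 of the 10 genes were called. The part of the shared spread in the lost calls was not tested. Markers of other cells were low in both groups: the neutrophil list summed to 0.0773% of counts in WT and 0.0733% in 5xFAD, with Ngp, Ltf, Lcn2, Camp, Mmp8, Ly6g, Elane and Mpo at 0 in every WT library. The 15 disease-associated microglial markers summed to 0.403% in WT and 1.72% in 5xFAD.

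**Figure D2:**
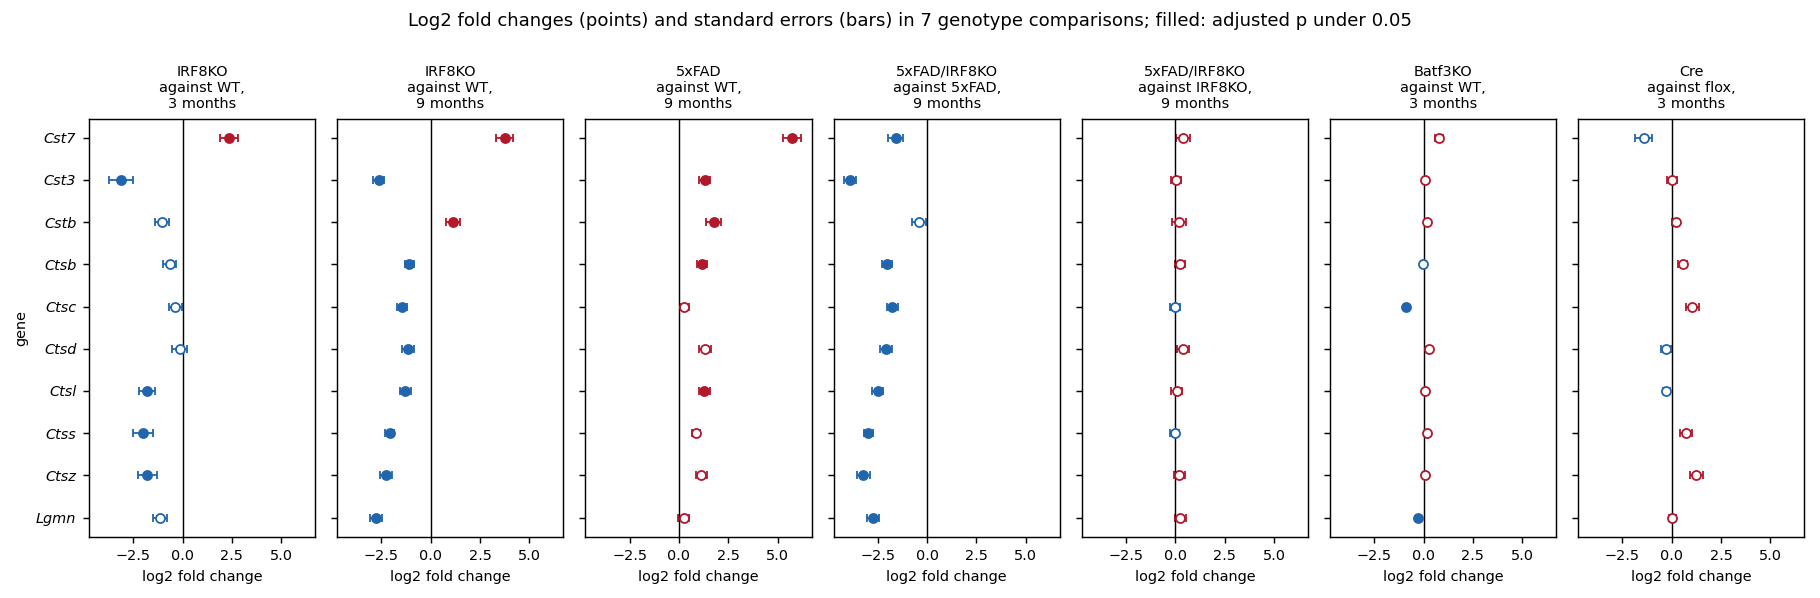
Log2 fold change (points) and standard error (bars) of the 10 genes in 7 genotype comparisons, one per panel, on a shared horizontal axis with filled points for adjusted p under 0.05. Cst7 stands to the right of 0 in 5xFAD (5.73) and in both germline IRF8KO comparisons (2.34 and 3.75), where the cathepsins stand to the left.

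Without Irf8 at 9 months the inhibitor and the proteases moved in opposite directions. Cst7 rose by 3.75 ± 0.44 (13.4-fold, adjusted p = 7.2e-05), while all 7 proteases and Cst3 fell. Lgmn, which matures several cathepsins, fell by 2.76 (SE 0.299, adjusted p = 4.11e-05), from 4328, 4421 and 3699 CPM in WT to 755, 448 and 561 CPM. Ctsz, a carboxypeptidase, fell by 2.29 (SE 0.303, adjusted p = 0.000174), from 2464, 2624 and 1967 CPM to 689, 275 and 425 CPM. Ctss, which cuts the invariant chain during antigen presentation, fell by 2.08 (SE 0.225, adjusted p = 4.06e-05), from 6997, 7446 and 6024 CPM to 1839, 1389 and 1416 CPM. Every IRF8KO library lay far below every WT library for these 3 proteases. The falls of Ctsc (-1.47), Ctsl (-1.29), Ctsd (-1.16) and Ctsb (-1.08) were smaller, with adjusted p between 0.00117 and 0.0133, and their groups did not overlap either.

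Cst3 stood at 33158, 35012 and 23370 CPM in WT and at 5560, 3575 and 4839 CPM in IRF8KO at 9 months. It fell by 2.65 (SE 0.291, adjusted p = 4.47e-05), and its share of all gene counts went from a mean of 4% to 0.492%. Cstb stood at 36.8, 41.1 and 24.8 CPM in WT and at 91.4, 61 and 67.1 CPM in IRF8KO, higher in each library. Its rise of 1.14 ± 0.359 (adjusted p = 0.0319) was called, but the call was lost when any of the 6 libraries was left out (0.83 to 1.29). In all, 2 genes were called higher and 8 lower, against 19.6% and 8.68% of all genes. The median of the 10 genes was -1.38 against 0.25 over all genes. The neutrophil list summed to 8.24% of counts in IRF8KO against 0.0773% in WT, the monocyte list to 1.07% against 0.000473% and the border macrophage list to 0.0883% against 0.0014%. Red blood cell markers summed to 8.41% against 0.00259%, oligodendrocyte markers to 0.9% against 0.0258%, astrocyte markers to 0.264% against 0.0212% and neuronal markers to 0.19% against 0.0005%. The disease-associated list summed to 3.73% against 0.403%. The share of reads that fell in genes was 48.6% to 53.4% in IRF8KO and 74.7% to 77.3% in WT. The part of these differences in the results was not tested. This comparison and that of 5xFAD with WT share the WT libraries.

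At 3 months Cst7 was again called higher, and Cst3, Ctss, Ctsl and Ctsz were again called lower. Cst7 rose by 2.34 ± 0.447 (5.06-fold, adjusted p = 0.0103). Cst3 stood at 109069, 53119, 40373 and 53814 CPM in WT and at 5711, 5992, 8056 and 10287 CPM in IRF8KO, and fell by 3.13 (SE 0.62, adjusted p = 0.0115). Ctss stood at 12532, 11091, 5321 and 3494 CPM in WT, a wide spread, and at 1752, 1969, 1838 and 2593 CPM in IRF8KO, and fell by 2.02 (SE 0.5, adjusted p = 0.0306). Ctsl fell by 1.82 (adjusted p = 0.0182) and Ctsz fell by 1.78 (adjusted p = 0.0366), and the groups did not overlap for any of these 4. Lgmn stood at 1247 to 2451 CPM in WT and at 708 to 1116 CPM in IRF8KO, apart but not called (-1.13 ± 0.356, adjusted p = 0.0708). Cstb (-1.04, adjusted p = 0.103), Ctsb (-0.66, adjusted p = 0.267), Ctsc (-0.37, adjusted p = 0.528) and Ctsd (-0.15, adjusted p = 0.863) were not called.

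Here 1 gene was called higher and 4 lower, against 4.15% and 3.24% of all genes, and the median was -1.09 against -0.02. The rise of Cst7 was called whichever of the 8 libraries was left out (1.88 to 2.65). The fall of Cst3 was not called without IRF8KO replicate 1 or 3, that of Ctsl without IRF8KO replicate 1, 2 or 3, and those of Ctss and Ctsz without any of the 4 IRF8KO libraries or without WT 1 or WT 2. The WT group of this experiment already held 3.88% of its counts in the neutrophil list, against 10.8% in IRF8KO, and 2.68% in the homeostatic list, against 1.12%. Red blood cell markers summed to 6.5% in WT and 5.1% in IRF8KO, oligodendrocyte markers to 2.56% and 1.95%, monocyte markers to 0.151% and 0.891% and border macrophage markers to 0.0109% and 0.127%. The disease-associated list summed to 1.38% in WT and 6.14% in IRF8KO. The share of reads that fell in genes was 47.3% to 63.9% in WT and 59.0% to 73.8% in IRF8KO. The part of these cells and differences in the rise and the falls was not tested.

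Between the ages, the Irf8 effect differed for 2 of the 10 genes, where 24% of all genes differed, and the median difference of the 10 was -0.17 against 0.40 over all genes. The effect on Cstb was higher at 9 months by 2.26 ± 0.534 (adjusted p = 0.00546) and that on Lgmn lower (-1.56 ± 0.463, adjusted p = 0.0216), the latter call being lost on leaving out the 9-month libraries WT 1, WT 2, IRF8KO 2 or IRF8KO 3. For Cst7 the difference was 1.47 (adjusted p = 0.089), which passed on leaving out the 3-month libraries WT 3 (1.68) or IRF8KO 2 (1.92). Age and experiment cannot be told apart here. The WT groups of the first and the Batf3 experiment, which share genotype and age, themselves differed in 4 of the 10 genes and in 42.8% of all genes. They differed in sex-linked transcripts too: Xist without Y-linked transcripts was found in all 3 libraries of the Batf3 WT group, and Y-linked transcripts without Xist in 3 of the 4 of the first, the other having neither. Cstb was higher in the first experiment by 2.25 (adjusted p = 0.00176), with 105 to 271 CPM against 49.3 to 54.6 CPM. Lgmn (-1.71, adjusted p = 0.00436), Ctsd (-1.36, adjusted p = 0.0171) and Ctsb (-0.92, adjusted p = 0.0446) were lower there, and Cst7 was not called (0.68, adjusted p = 0.321). Irf8 itself was also lower in the first experiment (-1.84, edgeR adjusted p = 0.000809), with means of 260 and 1230 CPM. The Ctsb call was lost on leaving out replicate 2 or 3 of the first experiment or any WT library of the Batf3 experiment, and the Ctsd call on leaving out replicate 1 or 2 of the latter.

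In 5xFAD mice the loss of Irf8 lowered 9 of the 10 genes. Cst3 fell the most, by 3.92 (SE 0.308, 15.1-fold, adjusted p = 5.09e-06), from 65777, 76134 and 78874 CPM to 4774, 4190 and 5685 CPM. Ctsz fell by 3.23 (SE 0.314, adjusted p = 1.96e-05), from 5119, 4731 and 5437 CPM to 544, 559 and 532 CPM. Ctss fell by 2.99 (SE 0.233, adjusted p = 4.73e-06), from 12517, 11217 and 13107 CPM to 1450, 1485 and 1708 CPM. In each of these the libraries of a group lay close together and the groups far apart. The remaining proteases fell too, with log2 changes of -2.74 for Lgmn, -2.51 for Ctsl, -2.08 for Ctsd, -2.03 for Ctsb and -1.76 for Ctsc and adjusted p of at most 0.000451. Cst7 fell as well, by 1.60 (SE 0.384, 3.03-fold, adjusted p = 0.00888), and its libraries stood apart (130 to 215 against 235 to 782 CPM). Cstb was not called (-0.42 ± 0.35, adjusted p = 0.406), and its libraries overlapped (83.6, 127 and 134 CPM in 5xFAD, 54.4, 91 and 111 CPM in 5xFAD/IRF8KO).

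None of the 10 genes was called higher and 9 were called lower, against 18% and 9.72% of all genes, with a median of -2.30 against 0.24. All 9 calls held with any of the 6 libraries left out. The neutrophil list summed to 12% of counts in 5xFAD/IRF8KO against 0.0733% in 5xFAD and the homeostatic list to 0.918% against 7.62%, with Sall1 at 0 in 5xFAD/IRF8KO. Red blood cell markers summed to 4.93% against 0.00044%, monocyte markers to 1.44% against 0.000403%, border macrophage markers to 0.127% against 0.00223%, oligodendrocyte markers to 0.54% against 0.0225%, astrocyte markers to 0.147% against 0.0235% and neuronal markers to 0.1% against 0.000292%. The disease-associated list summed to 4.04% in 5xFAD/IRF8KO against 1.72% in 5xFAD, higher where Cst7 was lower. The share of reads that fell in genes was 56.8% to 72.0% against 77.3% to 78.6%. The part of these differences in the falls was not tested.

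Between 5xFAD/IRF8KO and IRF8KO no difference was detected in any of the 10 genes. None was called, none had an unadjusted p under 0.05 with edgeR, and none was called by DESeq2. The background was 0.164% of genes. The fold changes lay between -0.04 and 0.39, with a median of 0.19 against 0.00 over all genes. That of Cst7 was 0.39 ± 0.376 (adjusted p = 0.757), with a 95% interval from -0.35 to 1.12. The response to the 5xFAD transgenes differed with the Irf8 genotype for Cst7, whose interaction term was -5.35 ± 0.583 (adjusted p = 0.0107) and was called with any of the 12 libraries left out (-5.69 to -4.84). For the other 9 genes the interaction was not called. It was -1.27 for Cst3 (adjusted p = 0.154), -1.57 for Cstb (0.165), -1.23 for Ctsl (0.168), -0.95 for Ctsb (0.227) and -0.91 for Ctss (0.187), where the values in brackets are adjusted p. Interaction calls covered 0.438% of all genes, and the median of the 10 was -0.95 against -0.13.

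Set directly against 5xFAD, with no shared control, IRF8KO at 9 months was lower in 9 of the 10 genes. Differences ran from -1.75 for Ctsc to -3.95 for Cst3 among the 8 called genes other than Cst7, with adjusted p of at most 0.000355. For Cst7 it was -1.99 ± 0.389 (adjusted p = 0.00273), 127 against 512 CPM. Cstb was not called (-0.62, adjusted p = 0.211). Calls in either direction covered 29.5% of all genes, and the median of the 10 was -2.52 against 0.19.

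The amount of inhibitor transcript relative to each protease was compared within libraries, since such a ratio does not depend on depth or scaling. In WT microglia at 9 months the log2 ratio of Cst7 to Ctsc counts had a mean of -6.52. Its mean in 5xFAD was -1.29, that in IRF8KO -1.33 and that in 5xFAD/IRF8KO -0.96. The libraries of these last 3 groups overlapped in this ratio, although Ctsc stood at 936 to 1396 CPM in 5xFAD and at 253 to 421 CPM in the groups without Irf8. For Ctss the means were -9.37, -4.75, -3.59 and -3.20 in the same order, and for Ctsl -5.41, -1.22, -0.42 and -0.15.

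Against WT, all 7 ratios were higher in 5xFAD by 4.18 to 5.30 and in IRF8KO at 9 months by 4.81 to 6.48 on the log2 scale, and the libraries did not overlap for any protease. With 3 libraries against 3 the exact permutation test (two-sided) cannot go below p = 0.10, which each of these reached. In IRF8KO at 3 months all 7 were higher by 2.42 to 4.14, each with exact permutation p = 0.0286 (0.163 after adjustment over the 49 ratio tests, so none passed). In 5xFAD/IRF8KO against 5xFAD the ratios differed by 0.33 to 1.77. Only those to Ctss (1.54) and Ctsz (1.77) stood apart, Cst7 having fallen less than these proteases. Between 5xFAD/IRF8KO and IRF8KO the ratios differed by -0.12 to 0.39 and overlapped for every protease. In Cre against flox all 7 ratios were lower, by -2.84 to -1.39, and 4 stood apart, those to Ctsb, Ctsd, Ctsz and Lgmn (exact permutation p = 0.0571 each, 0.163 after adjustment). Without the library labelled Cre replicate 1 they were lower by -3.71 to -1.68, each at the exact permutation limit of p = 0.1.

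**Figure D3:**
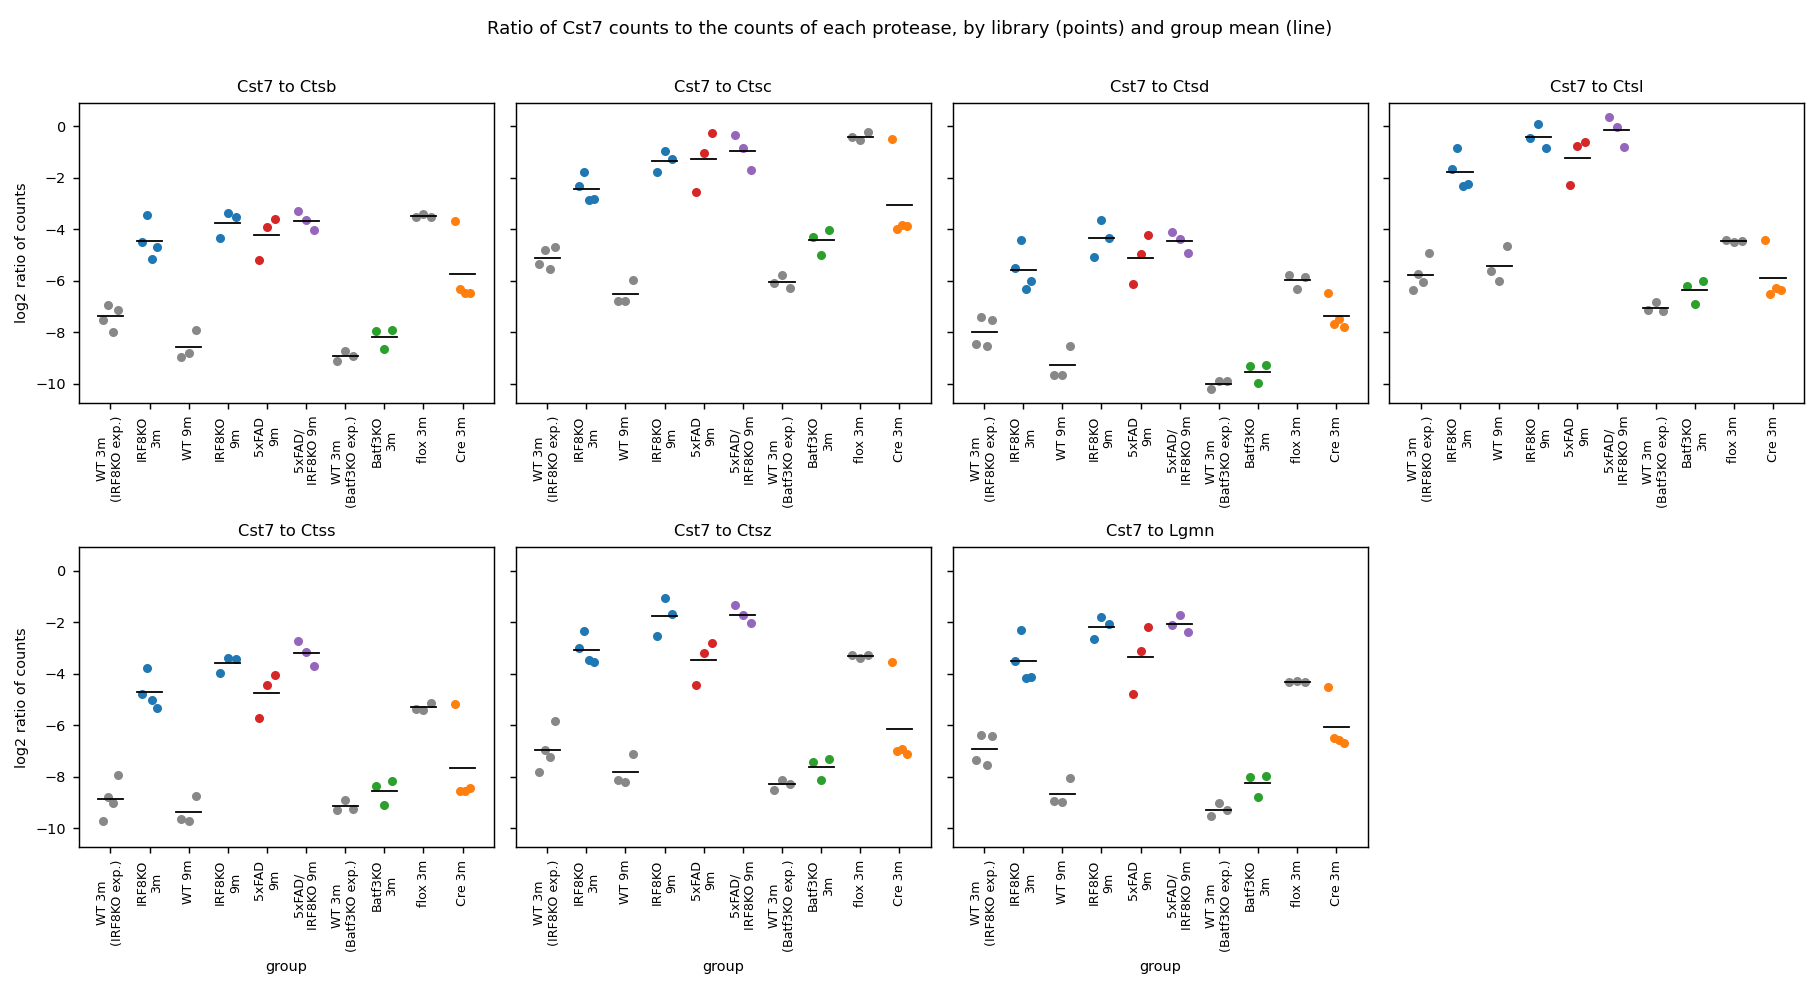
Log2 ratio of Cst7 counts to the counts of each of the 7 proteases (panels) in every library (points), with group means (lines). For each protease, WT libraries lie below the 5xFAD libraries and the libraries without Irf8 of the same experiment, as for Ctsc with means of -6.52 in WT at 9 months and -1.29 in 5xFAD.

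The summed level of the 7 proteases was 48735 ± 2856 CPM (SD, n = 3) in 5xFAD and 25046 ± 3079 CPM in WT at 9 months, and 7626 ± 2464 and 9164 ± 472 CPM in IRF8KO and 5xFAD/IRF8KO. At 3 months it was 20235 ± 7925 CPM in WT and 9602 ± 1565 CPM in IRF8KO (n = 4 each). A high ratio of Cst7 to proteases was found both where protease transcripts were abundant and where they were scarce.

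Batf3 loss changed few of the genes, and Ctsc the most. Ctsc stood at 827, 839 and 924 CPM in WT and at 437, 443 and 434 CPM in Batf3KO, tight groups that lay far apart. It fell by 0.89 (SE 0.0825, 1.85-fold, adjusted p = 3.67e-05), and the call held with any of the 6 libraries left out. Lgmn stood at 9070, 8105 and 7478 CPM in WT and at 5836, 6188 and 6698 CPM in Batf3KO. It fell by 0.30 (SE 0.0605, adjusted p = 0.0143), which was not called on leaving out replicate 1 or 2 of either group. Cst7 was not called (0.78 ± 0.219, adjusted p = 0.0714) but was called without Batf3KO replicate 2 (0.99), and Ctsd stood at 0.26 (adjusted p = 0.0969). With 2 genes called lower and none higher, against 2.42% and 1.41% of all genes, the median was 0.06 against 0.00. The ratio of Cst7 to Ctsc was higher in Batf3KO by 1.62 (means -4.43 and -6.04, exact permutation p = 0.1), 1 of 3 ratios that stood apart. The neutrophil list summed to 0.084% in Batf3KO and 0.108% in WT, and the homeostatic list to 8.59% and 8.78%.

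In the conditional knockout with all 7 libraries, none of the 10 genes was called, nor was any gene at all (0% of 15512). At an unadjusted p under 0.05, edgeR gave 1407 genes and 5 members, and DESeq2 called 162 genes and 2 members. Cst7 stood at -1.43 ± 0.42 (adjusted p = 0.275), below 0, where the germline knockout had raised it. Ctsz stood at 1.25 (adjusted p = 0.227), Ctsc at 1.05 (0.291), Ctss at 0.74 (0.47), Ctsb at 0.55 (0.47) and Ctsd at -0.29 (0.87), again with the adjusted p in brackets. The median of the 10 was 0.11 against 0.01 over all genes.

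Without the library labelled Cre replicate 1, 5 of the 10 genes were called, against 6.24% of all genes. Cst7 fell by 2.21 (SE 0.175, adjusted p = 2.85e-08), to 28.7 ± 4.43 CPM (SD, n = 3). Ctsz rose by 1.51 ± 0.197 (adjusted p = 2.24e-05), Ctsc by 1.30 ± 0.181 (adjusted p = 5.27e-05), Ctss by 0.98 ± 0.2 (adjusted p = 0.00294) and Ctsb by 0.71 ± 0.183 (adjusted p = 0.0216). Ctsz stood at 1310, 1346 and 1306 CPM in flox and at 3972, 2905 and 4439 CPM in Cre replicates 2 to 4. Ctsc stood at 179, 187 and 160 CPM in flox and at 489, 334 and 469 CPM in these 3 libraries. In both genes the library labelled Cre replicate 1 (1282 and 154 CPM) lay with the flox libraries or below them. Ctsd was not called (-0.52, adjusted p = 0.237). The disease-associated marker list summed to 2.5% to 3.31% of counts in flox, 2.66% in the library labelled Cre replicate 1 and 0.885% to 1.14% in the others. The border macrophage list summed to 0.0127% to 0.0174%, 0.0218% and 0.00073% to 0.0012% in the same order. The part of these differences in the result was not tested. Neutrophil markers were near 0 in both groups (means of 0.034% in flox and 0.0243% in Cre).

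**Figure D4:**
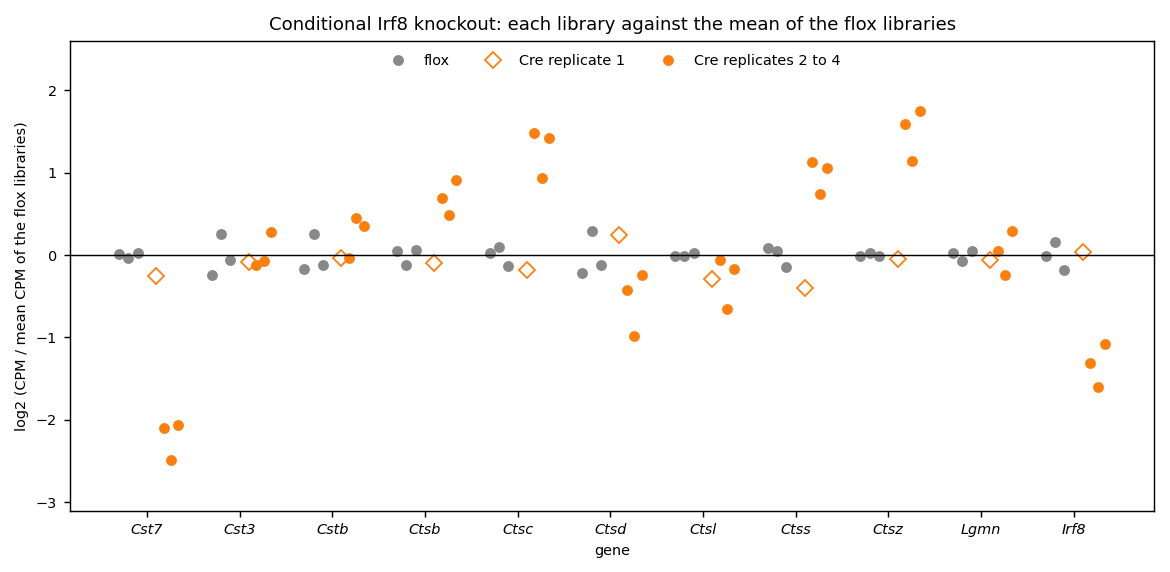
Log2 of each library's CPM over the mean of the flox libraries for the 10 genes and Irf8, with flox in grey, Cre replicates 2 to 4 as filled and the library labelled Cre replicate 1 as open points. The open points lie near the flox libraries, while the filled ones lie below 0 for Cst7 and Irf8 and above 0 for Ctsb, Ctsc, Ctss and Ctsz.

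The effect of conditional deletion differed from that of germline deletion at 3 months in 5 of the 10 genes with all libraries included (background 7.04%, median 1.40 against 0.27). The difference was -3.70 ± 0.67 for Cst7 (adjusted p = 0.00365), 3.21 for Cst3 (adjusted p = 0.0111), 3.11 for Ctsz (adjusted p = 0.00718), 2.84 for Ctss (adjusted p = 0.0115) and 1.62 for Ctsl (adjusted p = 0.043). Except for Ctsl, these calls held with any library left out, that labelled Cre replicate 1 included. The Ctsl call was lost without any library other than WT replicate 3 or 4. Ctsc (1.50, adjusted p = 0.0601) was called without the library labelled Cre replicate 1 (1.76) or WT replicate 4 (1.66). The levels of the control groups differed as well: Cst3 took a mean of 13.8% of all counts in flox and 5.64% in the WT group, and Cst7 stood at 132 and 16 CPM. All 7 libraries of the conditional experiment held Xist without Y-linked transcripts, and 7 of the 8 of the germline experiment Y-linked transcripts without Xist. Batf3 differed too, by 8.75 ± 1.37 (edgeR adjusted p = 0.00147). Its log2 change was -5.33 with germline deletion and 3.38 in Cre against flox (edgeR adjusted p = 0.00543 and 0.198). Line, sort, experiment and sex-linked transcripts cannot be told apart from the kind of deletion. An exchange of the flox and Cre labels was not tested either.

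Compared per kilobase of exon, Cst3 was the most abundant of the 10 transcripts in every group, with a mean level of 3679 CPM per kilobase in IRF8KO at 9 months and 100663 in Cre. Among the proteases, Ctss (5024) and Ctsd (2743) led in WT at 9 months, and Ctsl (68.6) was the lowest. Cst7 stood at 10.4 CPM per kilobase there and at 519 in 5xFAD, above Ctsc (195) and Ctsl (165) in that group and below the other 5 proteases. In IRF8KO at 9 months Cst7 (129) also stood above Ctsc (56.2) and Ctsl (27.1). These orders depend on the length used, the union of all annotated exons: 986 bases for Cst7, 5808 for Ctsc and 6489 for Ctsl. In plain CPM, Cst7 lay below both proteases in 5xFAD (512 against 1130 for Ctsc and 1072 for Ctsl). The same held in IRF8KO at 9 months (127 against 326 and 176). Parts of 4 of the genes overlap exons of other annotated genes, so that reads there may be lost or misassigned in unstranded counts: 34.4% of Ctsd with Gm49369, 26.8% of Ctsl with the antisense Gm47123 and the pseudogene Gm49230, 12.8% of Ctsb with Fdft1 and 0.7% of Ctsz with Nelfcd. Their levels are uncertain to that extent.

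Across the 10 groups, the 5 genes whose mean log2 level was most like that of Cst7, among 13945 genes with at least 5 CPM in some group, were Yeats4 (Pearson r = 0.92, Spearman rho = 0.92), Igf1 (0.90 and 0.92), Cenpv (0.88 and 0.81), Eif3e (0.85 and 0.90) and Ubald2 (0.85 and 0.77). Igf1, the gene of insulin-like growth factor 1, stood at 0.248 ± 0.229 CPM (SD) in WT and 20.5 ± 20 CPM in 5xFAD at 9 months. In 5xFAD/IRF8KO Igf1 stood at 24.5 ± 8.01 CPM, where the mean of Cst7 was lower than in 5xFAD (171 against 512 CPM). Group means of Yeats4 spanned only 20.4 CPM (Batf3KO) to 42.5 CPM (5xFAD), while those of Cst7 spanned 10.2 to 512 CPM. Of the other 9 genes, Cstb came closest at rank 1450 (r = 0.38), and the remaining 8 had negative r, from Ctsd (rank 7615, r = -0.09) to Lgmn (rank 12050, r = -0.44). These values are over 10 group means, some of which come from the same experiment, and describe the pattern only.

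The other genes of this proteolytic system were read from 5 further lists. Of 9 other cathepsins, all 9 were tested at 3 months and 7 at 9 months. Ctsh, an aminopeptidase, had log2 changes without Irf8 of -3.15 at 3 months (adjusted p = 0.00302), -3.04 at 9 months (adjusted p = 0.000167) and -3.89 in 5xFAD mice (adjusted p = 3.61e-05), and fell in all 3. Counts of this list were 1 higher and 2 lower at 3 months, 3 and 3 at 9 months, and 3 and 4 in 5xFAD mice, with medians of -0.17, -0.54 and -0.93 against -0.02, 0.25 and 0.24 over all genes. Over all genes, 4.15% were called higher and 3.24% lower at 3 months, 19.6% and 8.68% at 9 months, and 18% and 9.72% in 5xFAD mice. Ctsf fell by 1.15 at 3 months (adjusted p = 0.0422) but passed in just 1 of the 8 fits that omit a library, that omitting WT 4. Ctsa and Ctsf were the others that fell at 9 months, joined by Ctso in 5xFAD mice, named here after their values were seen. The Ctsf call was lost at 9 months without WT replicate 1 (-1.64), and that of Ctso without replicate 1 or 2 of either group (-1.02 to -0.67). The genes that rose were Ctsg alone at 3 months and Ctsg, Napsa and Ctse at 9 months and in 5xFAD mice. Ctse, an aspartic protease, stood at 92.6 ± 58.1 CPM in IRF8KO and 2.5 ± 1.78 CPM in WT at 9 months (n = 3 each), a rise not called without WT replicate 1 or 2 (5.88 and 4.75), nor in 5xFAD mice without 5xFAD replicate 1 or 2 (4.38 and 4.30). Batf3 loss lowered Ctsh and Ctsf, each by 0.30 (adjusted p = 0.0203 and 0.0296), 2 of 6 tested, where 2.42% of all genes were called lower. Both calls were lost without replicate 1 or 2 of either group (-0.33 to -0.26). None of this list was called in 5xFAD against WT or in Cre against flox.

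Of 8 serine proteases that cathepsin C matures, enzymes of neutrophil, killer-cell and mast-cell granules, 3 were tested in each germline Irf8 comparison and all 3 rose. These were Elane, Prtn3 and Ctsg, which is also on the list above. Over all genes, 4.15% were called higher at 3 months, 19.6% at 9 months and 18% in 5xFAD mice. Elane, and Ctsg at 9 months, were at 0 in the controls and could pass the filter on low counts only through libraries without Irf8. That all 3 tested rose is therefore no result in itself. Elane, the gene of neutrophil elastase, was at 0 in every WT and 5xFAD library compared and at means of 1490, 945 and 2335 CPM in IRF8KO at 3 months, IRF8KO at 9 months and 5xFAD/IRF8KO. This is at least 13926-fold, 2645-fold and 14422-fold higher, against a floor of 3 counts over the control group. Ctsg, cathepsin G, was at least 120-fold higher at 9 months and at least 2085-fold higher in 5xFAD/IRF8KO than in 5xFAD. These genes are themselves neutrophil precursor genes, and Elane and Prtn3 belong to the neutrophil list whose sums are given above. Ctsc, the gene of the enzyme that matures them, was not among the genes that rose. In 5xFAD against WT none of the 3 was called.

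Of 20 other cystatins, 5 or fewer were tested in each genotype comparison. BC100530, a stefin A gene, was called higher in IRF8KO at 3 months (24 against 0.638 CPM, adjusted p = 0.0482), a call lost in 7 of 8 fits with 1 library left out, all but WT replicate 2 (4.10 to 7.36). All 3 tested were called in 5xFAD/IRF8KO against 5xFAD, among them Stfa2l1 (17.9 against 0.0577 CPM, adjusted p = 0.0268) and Gm5483 (at least 84.1-fold, adjusted p = 0.0467). The third was Cst6, cystatin E/M, at 3.44 against 0 CPM, named after its value was seen. At or near 0 in 5xFAD, these 3 genes could not pass the filter on low counts through the 5xFAD libraries. That all tested were called is therefore no result in itself. The Stfa2l1 call was lost without any of the 3 5xFAD libraries (7.02 to 9.98), that of Gm5483 without any of the 6 libraries other than 5xFAD/IRF8KO replicate 3, and that of Cst6 without any of the 6. Over all genes, 4.15% were called higher at 3 months and 18% in 5xFAD mice. The stefin A genes are near-identical copies in a cluster, so their counts are uncertain. None was called in IRF8KO at 9 months or in 5xFAD. Of 5 serpins, Serpinb1a, an inhibitor of neutrophil serine proteases, rose by 2.66 at 3 months (adjusted p = 0.0269, not passing when WT 4, IRF8KO 1 or IRF8KO 2 is omitted, at 2.13 to 2.65) and was at least 1589-fold higher at 9 months and at least 4574-fold in 5xFAD/IRF8KO against 5xFAD. Serpinb6a, an inhibitor of cathepsin G, rose by 2.13 (adjusted p = 0.0041) and 2.43 (adjusted p = 0.00176) in the latter 2 comparisons.

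Of 15 genes that sort or activate lysosomal proteases, 14 were tested. At 9 months 6 fell and none rose without Irf8 (median -0.88 against 0.25 over all genes), where 8.68% of all genes fell and 19.6% rose. They included Ifi30, a lysosomal thiol reductase (-2.09, adjusted p = 0.00722), Nagpa, which uncovers the mannose 6-phosphate signal (-1.85, adjusted p = 0.00444), Psap, the saposin precursor (-1.50, adjusted p = 0.0102), and Lamp2, a lysosomal membrane protein (-0.94, adjusted p = 0.00705). In 5xFAD mice 4 fell and 1 rose without Irf8 (median -0.70 against 0.24), where 9.72% of all genes fell and 18% rose. Those that fell were Ifi30 (-2.60, adjusted p = 0.00219), Psap (-1.78, adjusted p = 0.00425), Nagpa (-1.36, adjusted p = 0.0213) and Lamp1, the last named after its value was seen. The Nagpa call was lost without 5xFAD replicate 1 or 2 or 5xFAD/IRF8KO replicate 1 (-1.23 to -1.20). The gene that rose, Igf2r, a mannose 6-phosphate receptor, stood at 6.5 ± 9.41 CPM against 0.0288 ± 0.05 CPM (adjusted p = 0.0498). Its rise passed in just 1 of the 6 fits that omit a library, that omitting 5xFAD/IRF8KO 1, and ranged over 4.22 to 8.54 in them. At 3 months 1 fell, Ifi30 (-2.02, adjusted p = 0.0292), a call kept only without WT replicate 3 or 4 (-2.28 to -1.35 over the 8 fits). None was called in 5xFAD against WT, and in Batf3KO Ifi30 rose by 0.45 (adjusted p = 0.0142), which did not pass when WT 2, Batf3KO 1 or Batf3KO 2 was omitted (0.43 to 0.45).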

How the data were processed

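The authors deposited whole-number counts of reads per gene for each library, without normalization, in the layout of STAR's gene counts per the file headers. The submitters' processing notes name bcl2fastq, STAR 2.5.2b, Picard 2.17.11, Subread and featureCounts, without a role, and the mm10 build. Per the labels' protocols, cDNA was amplified over 15 cycles with SMART-Seq v4 and tagged with Nextera XT, without molecular identifiers, so reads are not independent molecules and floors cover counting error only. The sources used here do not give the annotation release. Unstranded counts were taken, since 49.5% to 50.1% of stranded counts fell on the first strand. Counts in genes were 47.3% to 78.6% of reads, and unassigned reads stayed out of all totals. Gene symbols and coordinates are those of GENCODE M21 (GRCm38), in which 54079 of 54146 identifiers were found when the version was ignored.

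Genes were filtered with filterByExpr, scaled with TMM and tested by quasi-likelihood in edgeR 4.0.16 (R 4.3.3), with p-values adjusted with the Benjamini-Hochberg method over all genes tested. The 12 libraries aged 9 months shared 1 fit, and the other comparisons used their own groups. Groups came from the titles. Labels do not say that replicates are separate animals beyond giving each sample a number, so p-values measure the spread between these samples. No pair of replicates agreed within sampling noise (chi-square per degree of freedom of at least 2.31). Standard errors were derived from the F statistic. CPM use TMM factors over all 33 libraries. Ratios are log2 of Cst7 counts over protease counts, each plus 0.5, tested with exact two-sided permutation tests over libraries and adjusted over 49 tests. Likeness was ranked by Pearson's r on group means of log2 of CPM plus 0.5. The test was checked on simulated counts.

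Named are the 10 genes, Irf8, and, of the pathway lists, up to 4 called genes per list and comparison, by size of change, whose higher group averaged 5 CPM or more, with the 5 genes most like Cst7. Batf3 was added after its values were seen. The genes and lists were chosen with earlier results of these data known. Alternatives were DESeq2's size factors, no filter, DESeq2 1.42.0, a model of all 33 libraries, the replicate number as a block, a term for Y-linked transcripts of at least 10 CPM, only the 2 groups compared, other pseudocounts, and each library left out.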

Additional observations from a re-analysis of the deposited data

Results flagged for a closer look

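Of 33 tests for an extreme library (10 genes and Irf8 in the 3 groups of 4), 4 found a library far from the rest, where chance gives about 1 in 20. Cst7 was at 145 CPM in IRF8KO replicate 2 at 3 months, with the other 3 libraries at 56.8 to 64.5 CPM, and at 111 CPM in the library labelled Cre replicate 1, with the others at 23.6 to 31.6 CPM. That IRF8KO library also held the most neutrophil markers (16.7% of counts, the others 7.8% to 10.3%) and monocyte markers (1.42%, the others 0.595% to 0.926%) of its group. The part of these cells in its Cst7 level was not tested. Cst3 was at 153610 CPM in Cre replicate 4, with the others at 116574 to 120412 CPM. Irf8 was at 313 CPM in WT replicate 1 of the IRF8KO experiment at 3 months, with the others at 241 to 244 CPM.

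Effects under the same contrast differed in 8 cases by a test of the difference itself. The response of Cst7 to the 5xFAD transgenes was lower without Irf8 (-5.35 on the log2 scale, edgeR adjusted p = 0.0107), where 0.438% of all genes were called. The effect of Irf8 loss at 9 months exceeded that at 3 months for Cstb (2.26, adjusted p = 0.00546) and lay below it for Lgmn (-1.56, adjusted p = 0.0216). Between the ages 24% of all genes were called, so these calls do not set the listed genes apart. The Lgmn call was lost on leaving out some single 9-month libraries. Conditional and germline loss differed for Cst7 (-3.70), Cst3 (3.21), Ctsz (3.11), Ctss (2.84) and Ctsl (1.62), with adjusted p of 0.00365 to 0.043. Over all genes 7.04% were called there, and the Ctsl call was lost on leaving out most single libraries. What lies behind these differences was not tested.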

How the results depend on the processing

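The direction and call of Cst7 were kept under every alternative and with any library left out in 5 germline Irf8 or 5xFAD comparisons (IRF8KO at both ages, 5xFAD, 5xFAD/IRF8KO against 5xFAD, IRF8KO against 5xFAD) and in the interaction. The cause of the changes below was not tested. Without a filter, genes called numbered 1655 for IRF8KO at 3 months (970 in the main analysis), 163 for 5xFAD (290), 320 for 5xFAD/IRF8KO against IRF8KO (24), 238 for the interaction (64), 998 for Batf3KO (503) and 618 for Cre against flox (0). With DESeq2 the same comparisons gave 2581, 785, 838, 912, 809 and 162, and conditional against germline loss 2287 (1223). In the model of all 33 libraries the first 6 gave 3300, 806, 1452, 1082, 10 and 3. That model also gave 6836 for IRF8KO at 9 months (4136), 6783 for 5xFAD/IRF8KO against 5xFAD (4054), 7127 for IRF8KO against 5xFAD (4311) and 6342 for the ages (3717).

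With the replicate number as a block, which the samples share only as a number (correlations of same-numbered deviations from -0.179 to 0.173, and not every sample correlated best with its own number), genes called were 105 for 5xFAD, 0 for 5xFAD/IRF8KO against IRF8KO, 9 for the interaction, 216 for Batf3KO and 810 for conditional against germline loss. With the Y-linked term they were 51, 2560 for 5xFAD/IRF8KO against 5xFAD, 10 for 5xFAD/IRF8KO against IRF8KO and 1 for the interaction. With only the 2 groups compared they were 4546 for 5xFAD and 0 for 5xFAD/IRF8KO against IRF8KO.

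Of the 10 genes, the number called changed for IRF8KO at 3 months (5) to 8 with all 33 libraries, 3 with the block and 3 with the Y-linked term. For 5xFAD (5) it changed to 3 with DESeq2's size factors, 8 with DESeq2, 1 with the block, 1 with the Y-linked term and 8 with only the 2 groups. For the interaction (1) it became 2 without a filter, 3 with DESeq2 and 2 with all 33 libraries. For Batf3KO (2) it became 4 without a filter, 0 with all 33 libraries and 1 with the block. For Cre (0) it became 4 without a filter and 2 with DESeq2, and for conditional against germline loss (5) 8 with DESeq2 and 8 with all 33 libraries. Cst7 was called in Batf3KO without a filter (0.78) and with DESeq2 (0.78), in Cre without a filter (-1.44) and between the ages with DESeq2 (1.64). Uncalled values changed sign with the Y-linked term for Ctsd in IRF8KO at 3 months (0.03) and for Ctsc (-0.02) and Lgmn (-0.19) in 5xFAD. DESeq2's size factors moved the median of all genes between the ages from 0.40 to 0.57.

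With each library left out in turn, genes called ranged over 305 to 1128 (IRF8KO, 3 months), 2266 to 4126 (IRF8KO, 9 months), 2 to 102 (5xFAD), 2325 to 4055 (5xFAD/IRF8KO against 5xFAD), 38 to 140 (5xFAD/IRF8KO against IRF8KO), 2437 to 4487 (IRF8KO against 5xFAD), 2 to 189 (interaction), 219 to 596 (Batf3KO), 0 to 952 (Cre), 2191 to 4053 (ages), 471 to 1780 (conditional against germline) and 3908 to 6529 (WT groups). Members called ranged over 1 to 6, 9 to 9, 1 to 1, 9 to 9, 0 to 0, 9 to 9, 1 to 1, 1 to 2, 0 to 5, 1 to 3, 4 to 8 and 2 to 4 in that order. Cst7 ranged over 0.59 to 0.99 in Batf3KO, -2.21 to -1.20 in Cre and 1.21 to 1.92 between the ages. Uncalled values crossed 0 for Ctsd in IRF8KO at 3 months (-0.29 to 0.07) and reached 0 for Lgmn in 5xFAD (-0.00 to 0.36), and the ratio of Cst7 to Ctsc in 5xFAD/IRF8KO against 5xFAD ranged over -0.32 to 0.84. In IRF8KO at 3 months the ratios of Cst7 ranged over 2.61 to 3.18 (Ctsb), 2.42 to 2.79 (Ctsc), 2.04 to 2.67 (Ctsd), 3.69 to 4.28 (Ctsl), 3.82 to 4.46 (Ctss), 3.60 to 4.26 (Ctsz) and 3.01 to 3.63 (Lgmn), where 3 libraries against 4 leave fewer arrangements to the permutation test. At 9 months the falls of Ctsb (-0.99) and Ctsd (-1.07) were not called with only the 2 groups. The block and the Y-linked term were not run where the groups left them no separate estimate. Depth limits Cst7 most in WT at 9 months, where 1 library held 12 counts.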
